A study of Mus musculus with 12 samples.

Results

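T cell receptor gene segments were followed in 12 mouse spleen libraries. The segments were the rows of the deposited count table that GENCODE M21, on the GRCm38 build, annotates as receptor V or C genes and that held at least 10 counts summed over all libraries. These criteria gave 93 genes out of 53715 rows. The alpha chain had 54 V genes and 1 C gene, the beta chain 21 V and 2 C genes, the gamma chain 6 V and 4 C genes, and the delta chain 4 V genes and 1 C gene. A further 59 of the 152 annotated V and C genes held fewer than 10 counts, of which 52 had 0 counts in every library. Tcrg-V3 and Trav13n-1 lay just inside the limit with 11 summed counts each, and Trav18 lay just outside it with 9.

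The mice were all BXSB.Cg-Cd8atm1Mak Il15tm1Imx Yaa (Yaa DKO), an autoimmune-prone BXSB background with the Y-linked Yaa mutation and targeted alleles of Cd8a and Il15, so every group carried the same alleles and none was an unmutated control. There were 4 libraries from symptomatic mice aged 10 weeks that drank water with 2-deoxyglucose (2DG, an inhibitor of glycolysis) at 6 g/L, numbered 9 to 12. They were set against 4 libraries from untreated symptomatic mice at 10 weeks, numbered 5 to 8, and 4 from untreated pre-symptomatic mice at 6 weeks, numbered 1 to 4. It is not stated that each library came from its own animal, so the p-values given here measure the variation among libraries, part or all of which may be technical.

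A T cell receptor is a pair of chains, either alpha with beta or gamma with delta, and each chain joins 1 rearranged variable (V) segment to a constant (C) region. The choice of V segment, with the joint beside it, sets much of what the receptor binds. A C gene is shared by cells that use different V segments, and the beta and gamma chains have more than 1 C gene. In spleen most T cells carry alpha and beta chains, gamma delta T cells are a small population, and the receptor reaches the cell surface only together with the CD3 proteins.

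Spleen RNA was sequenced as poly(A)-selected libraries without strand information, with 15596040 to 26079979 counts per library. All 8 listed T cell markers and all 6 B cell markers were counted in the libraries, as were the splenic stroma genes Tlx1, Nkx2-5 and Madcam1. The mutated genes were still counted: Cd8a held 27.7 to 70.7 CPM (counts scaled to library size) and Il15 4.67 to 7.20 CPM over the 12 libraries. A count over a whole gene does not show whether the altered part was transcribed, and no unmutated library was available to compare. Immunoglobulin genes took 1.93 to 3.08% of counts in the 2DG libraries, 5.11 to 10.7% in untreated 10-week libraries and 2.79 to 4.94% in untreated 6-week libraries. Globin genes took 0.857 to 1.72%, 0.132 to 1.27% and 0.446 to 0.715% in the same order of groups. Of the untreated 10-week libraries, replicate 8 lay nearest to the other groups in immunoglobulin share. The chi-square per gene between 2 libraries of a group was 10.7 to 31.0 with 2DG, 54.8 to 85.2 in untreated 10-week and 10.5 to 24.3 in untreated 6-week libraries, so untreated 10-week libraries differed most among themselves.

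Beta chain V segments could be told apart by sequence, and the most counted ones shared a short coding motif at their 3′ end. The last 48 coding bases are printed here 5′ to 3′ for the 6 Trbv genes with the most counts, since they show both the sharing and the differences on which V usage rests. The capitals mark TGTGCCAGC, which codes for the conserved cysteine followed by alanine and serine, where the third hypervariable loop of many beta chains begins. The sequences are from the GENCODE M21 transcripts, on the plus strand of GRCm38, and Trbv13-2 lies at chr6:41121785-41121832.
Trbv13-2: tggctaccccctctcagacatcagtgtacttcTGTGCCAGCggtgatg
Trbv3: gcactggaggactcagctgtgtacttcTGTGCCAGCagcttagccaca
Trbv2: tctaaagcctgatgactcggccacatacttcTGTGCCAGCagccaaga
Trbv15: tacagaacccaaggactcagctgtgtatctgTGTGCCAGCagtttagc
Trbv19: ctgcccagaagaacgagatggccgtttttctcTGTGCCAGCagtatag
Trbv13-1: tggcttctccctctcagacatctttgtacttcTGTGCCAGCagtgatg
The letters TGTGCCAGC were found in the last 48 coding bases of 13 of the 21 Trbv genes followed here. They were found in none of the alpha, gamma or delta V genes, and in 9.0% of all 144 annotated V genes. The reverse complement was found in none of them.

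The constant regions of the gamma chain are close copies, which sets how far their counts can be separated. The first 60 coding bases of the 4 genes are printed 5′ to 3′ with capitals where a gene differs from Tcrg-C1; for Tcrg-C3 they start at its annotated coding base 2, which aligns with base 1 of the others. Tcrg-C2 lies on the minus strand of chromosome 13 at chr13:19307492-19307551, and the other 3 genes lie on its plus strand.
Tcrg-C1: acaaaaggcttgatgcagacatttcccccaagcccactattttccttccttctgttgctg
Tcrg-C2: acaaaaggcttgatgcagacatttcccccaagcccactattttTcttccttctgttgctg
Tcrg-C3: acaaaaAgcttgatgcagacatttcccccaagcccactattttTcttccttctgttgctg
Tcrg-C4: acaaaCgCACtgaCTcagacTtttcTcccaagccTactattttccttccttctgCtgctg
Over the first 300 coding bases, aligned in this way, Tcrg-C2 differed from Tcrg-C1 at 8 positions, Tcrg-C3 at 13 and Tcrg-C4 at 52. Every 50-base window of Tcrg-C4 was absent from all other receptor genes, against 65.8% of windows in Tcrg-C1, 74.6% in Tcrg-C2 and 57.4% in Tcrg-C3. Counts of Tcrg-C4 are therefore the most specific of the 4, and those of Tcrg-C1, Tcrg-C2 and Tcrg-C3 are uncertain where reads fell on shared stretches.

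The beta constant genes are closer still. Trbc1 and Trbc2 differ at 1 of the 375 bases of their first exon, and the 60 bases around that difference show it in capitals. They lie at chr6:41538447-41538506 and chr6:41546959-41547018 on the plus strand.
Trbc1: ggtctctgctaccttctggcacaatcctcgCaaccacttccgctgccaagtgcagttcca
Trbc2: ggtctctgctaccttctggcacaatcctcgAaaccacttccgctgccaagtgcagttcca
Of their 50-base windows, 58.9% in Trbc1 and 56.0% in Trbc2 occurred in no other receptor gene, so the split of counts between the pair depends on how shared reads were divided. Their sum does not depend on that division, provided that shared reads were counted and not dropped, which is not stated.

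All 93 segments together took 0.0204, 0.0195, 0.0267 and 0.0294% of counts in the 2DG libraries, 0.0196, 0.0282, 0.0181 and 0.0229% in untreated 10-week libraries, and 0.0245, 0.0226, 0.0227 and 0.0309% in untreated 6-week libraries. The means were 0.0240 ± 0.0048% with 2DG, 0.0222 ± 0.0045% in untreated 10-week and 0.0252 ± 0.0039% in untreated 6-week spleens (SD, n = 4 each), and the 3 ranges overlapped. In a whole spleen, fewer T cells and less receptor RNA per T cell cannot be told apart.

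None of the 35 receptor segments tested was called at an adjusted p under 0.05 in any of the 3 comparisons. The test was edgeR's quasi-likelihood test with Benjamini-Hochberg adjustment over 18542 genes. Only 35 of the 93 segments passed the filter on low counts: Trac, 9 Trav genes, both Trbc genes, 17 Trbv genes, 3 gamma C genes, 2 gamma V genes and Trdc. The other 58 were counted too rarely to be tested. For 2DG against untreated spleens at 10 weeks, 0 of the 35 were called, where 7.42% of all genes tested were called, 2.16% higher and 5.26% lower. Without adjustment, 3 of the 35 and 24.5% of all genes had a p under 0.05. For untreated 10-week against untreated 6-week spleens, 0 of the 35 were called, beside 0.00539% of all genes, and 4 of the 35 and 17.1% of all genes had such an unadjusted p. For 2DG at 10 weeks against untreated 6-week spleens, 0 of the 35 were called, beside 0.129% of all genes, 0.0378% higher and 0.0917% lower, and 2 of the 35 and 16.9% of all genes had such an unadjusted p. DESeq2, in the same order of comparisons, called 0 of 54, 0 of 29 and 0 of 23 segments that had an adjusted p, where it called 11.4, 3.96 and 5.36% of all genes.

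The median log2 fold change of the 35 tested segments was 0.10 for 2DG against untreated at 10 weeks, with 20 positive and 15 negative, beside a median of 0.01 over all genes. Between untreated 10-week and untreated 6-week spleens it was −0.14, with 11 positive and 24 negative. For 2DG at 10 weeks against untreated 6-week spleens it was −0.15, with 10 positive and 25 negative. The first comparison shares its untreated 10-week libraries with the second, and its 2DG libraries with the third. Segments with values that did not overlap between groups numbered 1 of 35 for 2DG at 10 weeks (Trbv14, lower), where 12.4% of all genes did not overlap, and 1 of 35 between the untreated ages (Trbv17, lower at 10 weeks), where 6.97% did not. None of the 35 did so for 2DG against 6 weeks, beside 15.7% of all genes.

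**Figure D1:**
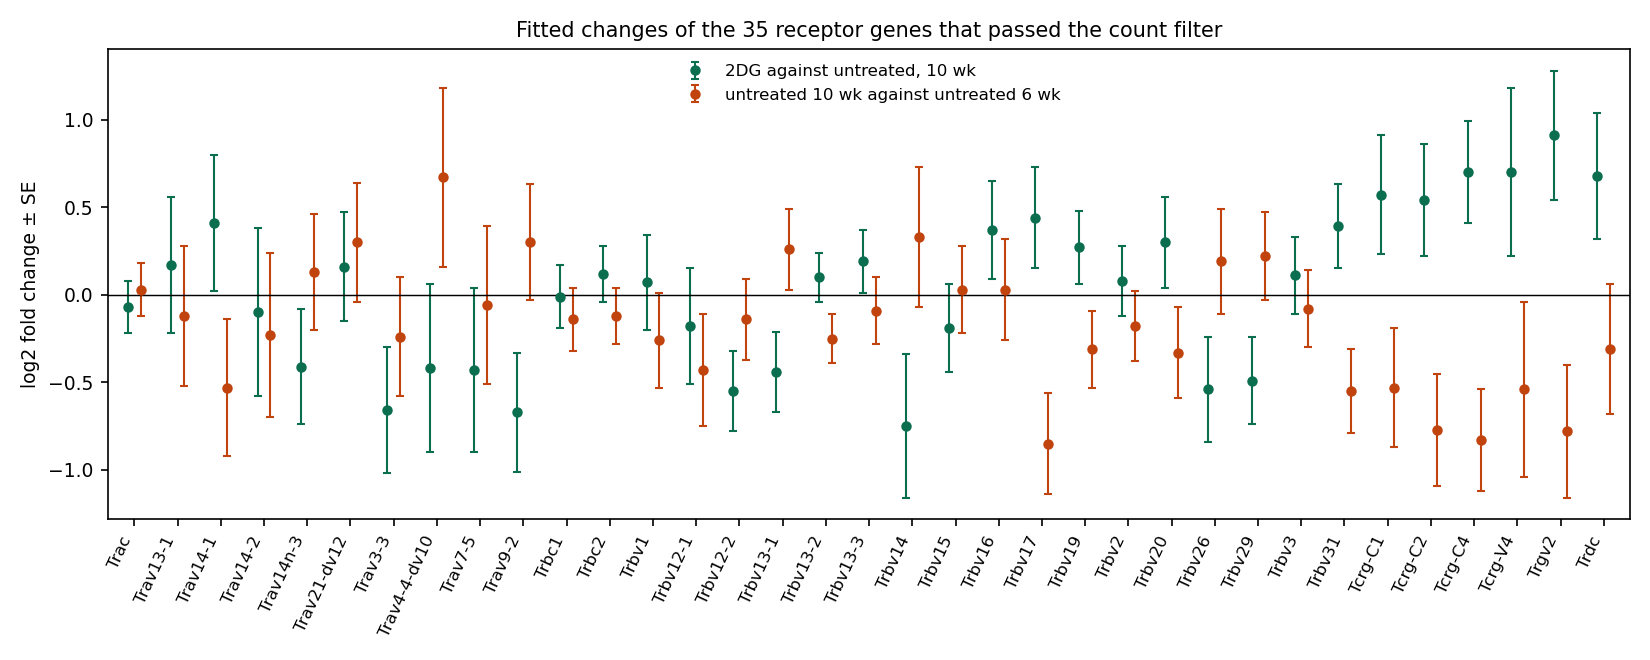
Fitted log2 fold changes with their standard errors for the 35 receptor genes that passed the count filter, with genes along the horizontal axis grouped by chain. Green points are 2DG over untreated at 10 weeks and orange points are untreated at 10 weeks over untreated at 6 weeks; the 6 gamma and delta genes at the right are all above 0 in green and below 0 in orange, and no gene passed the adjusted threshold.

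Trac, the only alpha constant gene, overlapped fully across the groups. It lies at chr14:54220521-54224206 and held 68.4, 60.2, 84.6 and 96.6 CPM with 2DG, 79.6, 100, 70.7 and 75.4 CPM in untreated 10-week libraries, and 77.6, 70.9, 74.9 and 95.4 CPM in untreated 6-week libraries. The lowest and second highest of the 12 values were both in 2DG libraries. Its log2 fold change was −0.07 ± 0.15 (SE) for 2DG at 10 weeks, with an approximate 95% interval of −0.37 to 0.23 and an edgeR adjusted p of 0.824. Between the untreated ages it was 0.03 ± 0.15, with an adjusted p of 0.939.

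The beta constant genes overlapped across groups in the same way. Trbc2 held 45.7, 46.1, 58.7 and 66.3 CPM with 2DG, 48.2, 60.1, 41.5 and 49.4 CPM in untreated 10-week libraries, and 55.2, 45.9, 46.5 and 69.5 CPM in untreated 6-week libraries. Trbc1 averaged 28.4 ± 5.2 CPM with 2DG, 28.6 ± 6.7 CPM in untreated 10-week and 31.6 ± 5.7 CPM in untreated 6-week libraries (SD, n = 4 each). For 2DG at 10 weeks the log2 fold changes were 0.12 ± 0.16 for Trbc2 and −0.01 ± 0.18 for Trbc1, with edgeR adjusted p of 0.703 and 0.980. Trbc1 made up 33.2 to 35.4% of the pair's counts with 2DG, 32.8 to 38.4% in untreated 10-week and 35.2 to 38.9% in untreated 6-week libraries, which overlap.

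Per kilobase of exon, the levels of the constant genes fell into a high and a low tier that was the same in all 3 groups. Trac averaged 82.8, 87.1 and 85.2 CPM per kilobase and Trbc2 78.3, 71.9 and 78.5 in 2DG, untreated 10-week and untreated 6-week libraries, which did not differ beyond their spread. Trbc1 came next, with 37.9, 38.1 and 42.1 CPM per kilobase. The gamma genes Tcrg-C4, Tcrg-C1 and Tcrg-C2 followed at 1.60 to 2.92 CPM per kilobase in every group mean, their order among themselves changing with the group, and Trdc at 0.715 to 1.16. The place of Trdc rests on its annotated exon length of 3865 bases, against 914 to 985 bases for these gamma genes. In CPM its mean was above theirs in every group. Tcrg-C3 was close to absent, with 18 counts summed over all libraries and at most 5 in any.

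**Figure D2:**
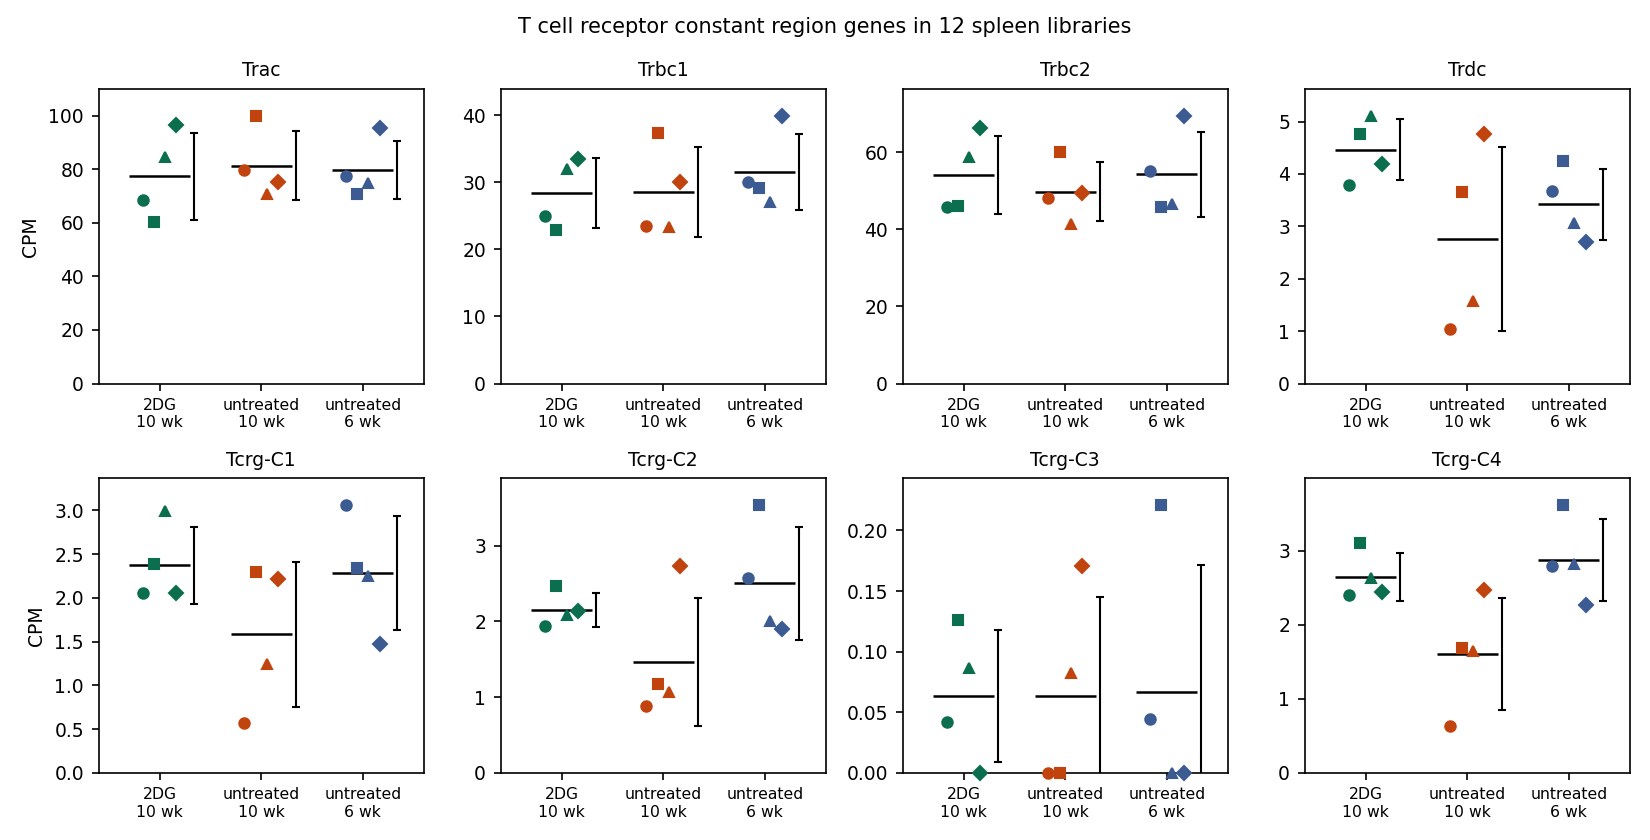
CPM of the 8 constant region genes in each library, with 1 panel per gene and the groups from left to right as 2DG at 10 weeks, untreated at 10 weeks and untreated at 6 weeks. Each symbol is a library (circle, square, triangle and diamond in replicate order), the horizontal line is the mean and the bar beside it the SD, cut at 0; Trac, Trbc1 and Trbc2 overlap across groups, while Trdc, Tcrg-C1, Tcrg-C2 and Tcrg-C4 spread widely in untreated 10-week libraries.

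Gamma and delta constant genes were lower on average in untreated 10-week spleens than in the other groups, but the libraries of that group disagreed with each other. Trdc, the delta constant gene at chr14:54142851-54148868, held 3.79, 4.77, 5.11 and 4.19 CPM with 2DG, 1.04, 3.66, 1.57 and 4.77 CPM in untreated 10-week libraries, and 3.68, 4.24, 3.06 and 2.70 CPM in untreated 6-week libraries. Untreated 10-week replicates 5 and 7 lay below every other library, while replicate 8 of the same group equalled 2DG replicate 10. The values rest on 90 to 118, 20 to 112 and 44 to 96 counts in the 3 groups. The fitted change for 2DG at 10 weeks was 0.68 ± 0.36 on the log2 scale, with an approximate 95% interval of −0.02 to 1.39 and an edgeR adjusted p of 0.272. It was −0.31 ± 0.37 between the untreated ages, with an adjusted p of 0.714.

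Tcrg-C4 is the gamma constant gene with the most distinct sequence. Like Trdc it was low in untreated 10-week replicates 5 and 7, but it was low in replicate 6 as well. It held 2.40, 3.10, 2.64 and 2.45 CPM with 2DG, 0.626, 1.69, 1.65 and 2.47 CPM in untreated 10-week libraries, and 2.79, 3.62, 2.82 and 2.27 CPM in untreated 6-week libraries. Only untreated replicate 8 reached the range of the 2DG libraries, and it alone made the groups overlap. The log2 fold change for 2DG at 10 weeks was 0.70 ± 0.29 with an edgeR adjusted p of 0.157, and between the untreated ages it was −0.83 ± 0.29 with an adjusted p of 0.184. Without untreated replicate 8 the adjusted p became 0.0436 for 2DG and 0.0352 between the ages, with log2 fold changes of 0.98 and −1.11. The same step took the calls over all genes to 2209 (11.8% of those tested) for 2DG, against 1376 with all libraries, and to 1563 (8.33%) between the ages, against 1, so it was not particular to receptor genes.

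Tcrg-C2 depended on the same library. Its values were 1.94, 2.47, 2.08 and 2.14 CPM with 2DG, 0.887, 1.17, 1.07 and 2.73 CPM in untreated 10-week libraries, and 2.57, 3.54, 2.01 and 1.90 CPM in untreated 6-week libraries. Replicate 8 was the highest of the untreated 10-week libraries and of all libraries but 1, and the other 3 lay below all the rest. With all libraries the log2 fold changes were 0.54 ± 0.32 for 2DG and −0.77 ± 0.32 between the untreated ages, with edgeR adjusted p of 0.326 and 0.242. Without replicate 8 they were 1.03 and −1.26, with adjusted p of 0.0168 and 0.0111. Tcrg-C2 and Tcrg-C4 were then 2 of 38 segments called in each comparison, below the 11.8 and 8.33% of all genes. Whether replicate 8 or the other 3 stand for the untreated state at 10 weeks was not tested.

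Tcrg-C1 averaged 2.37 ± 0.44 CPM with 2DG, 1.58 ± 0.83 CPM in untreated 10-week and 2.28 ± 0.65 CPM in untreated 6-week libraries (SD, n = 4 each). The untreated 10-week libraries held 0.574, 2.3, 1.24 and 2.22 CPM. Replicate 6 as well as replicate 8 lay within the 2DG range of 2.05 to 2.99 CPM. The log2 fold change of Tcrg-C1 was 0.57 ± 0.34 for 2DG at 10 weeks, with an edgeR adjusted p of 0.331, and the groups overlapped. Over the edgeR and DESeq2 alternatives, with each library left out in turn, its adjusted p for 2DG was 0.165 to 0.565. Both tested gamma V genes had positive estimates too. Trgv2 held 0.547, 0.879, 0.823 and 0.893 CPM with 2DG, 0.104, 0.423, 0.536 and 0.554 CPM in untreated 10-week libraries, and 0.842, 0.840, 0.765 and 0.368 CPM in untreated 6-week libraries. Its log2 fold change of 0.91 ± 0.37 for 2DG had the smallest p of the 35 segments, with an edgeR adjusted p of 0.154. Tcrg-V4 had a log2 fold change of 0.70 ± 0.48 and an adjusted p of 0.408.

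Set against the alpha and beta constant genes, the gamma and delta constant genes gave a ratio that does not depend on library depth. There were 7.35, 9.94, 7.36 and 5.52 gamma and delta C counts per 100 alpha and beta C counts with 2DG, 2.07, 4.47, 4.14 and 7.98 in untreated 10-week libraries, and 7.45, 9.57, 6.83 and 4.08 in untreated 6-week libraries. Untreated replicates 5, 6 and 7 lay below all 2DG libraries, and replicate 8 lay among them; untreated 6-week replicate 4 was as low as untreated 10-week replicate 7. The means were 7.55 ± 1.82 with 2DG, 4.67 ± 2.45 in untreated 10-week and 6.98 ± 2.27 in untreated 6-week libraries (SD, n = 4 each). As a share of all C counts the lowest library, untreated 10-week replicate 5, had 60 of 2959, or 2.03% with a 95% Wilson interval of 1.58 to 2.6%. Untreated replicate 8 had 290 of 3924, or 7.39% with an interval of 6.61 to 8.25%, so the libraries of this group differed by more than counting error. The same held in the other groups. With 2DG, replicate 10 had 9.04% (8.12 to 10.1%) and replicate 12 had 5.23% (4.63 to 5.91%). At 6 weeks, untreated replicate 2 had 8.74% (7.86 to 9.7%) and replicate 4 had 3.92% (3.32 to 4.61%). Such intervals cover counting error only.

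Restricting the ratio to genes with near-unique sequence left the pattern as it was. Tcrg-C4 and Trdc together gave 9.05, 13.1, 9.17 and 6.89 counts per 100 Trac counts with 2DG, 2.10, 5.36, 4.55 and 9.61 in untreated 10-week libraries, and 8.34, 11.1, 7.86 and 5.21 in untreated 6-week libraries. Replicate 8 was again the only untreated 10-week library within the 2DG range.

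**Figure D3:**
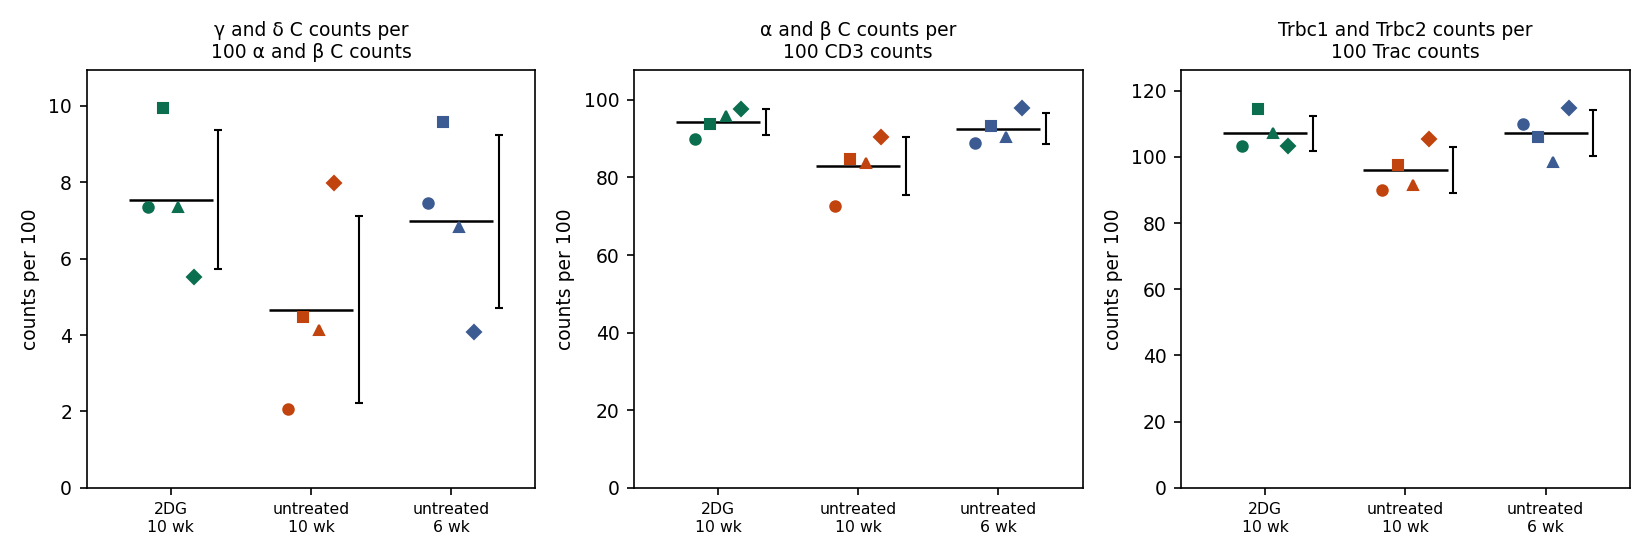
Ratios of counts within each library, in counts per 100, for gamma and delta C over alpha and beta C (left), alpha and beta C over CD3 (middle) and Trbc over Trac (right). Symbols are libraries, lines are means and bars are SD (n = 4 per group); 2DG libraries span 5.52 to 9.94 in the left panel and 89.9 to 97.7 in the middle panel, against 2.07 to 7.98 and 72.7 to 90.4 in untreated 10-week libraries.

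The CD3 genes give a second yardstick, since their proteins assemble with every receptor. Alpha and beta C counts numbered 89.9, 93.8, 95.7 and 97.7 per 100 counts of Cd3d, Cd3e, Cd3g and Cd247 with 2DG, 72.7, 84.8, 83.7 and 90.4 in untreated 10-week libraries, and 88.8, 93.4, 90.4 and 97.9 in untreated 6-week libraries. Untreated 10-week replicates 5, 6 and 7 lay below the other 9 libraries and replicate 8 lay within their range. This separation depended on the yardstick. Per 100 counts of the pan T cell genes Cd2, Cd5, Cd6 and Thy1, replicates 5, 6, 7 and 8 had 55.2, 71.9, 56.8 and 65.45. The 2DG libraries had 61.8 to 76.1 and the untreated 6-week libraries 61.7 to 71.7. Replicates 5 and 7 were then still lowest, but replicate 6 was among the highest. The 2 chains did not keep a fixed ratio: Trbc counts per 100 Trac counts were 103 to 115 with 2DG, 90.0 to 105 in untreated 10-week and 98.4 to 115 in untreated 6-week libraries. Gamma and delta C counts per 100 CD3 counts averaged 7.09 ± 1.64, 4.00 ± 2.37 and 6.43 ± 2.03 in the same order of groups (SD, n = 4 each). In the untreated 10-week group, immunoglobulin share ran the other way: it was 10.7, 10.2 and 8.97% in replicates 5, 6 and 7 and 5.11% in replicate 8. Its part in these ratios was not tested.

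Use of beta V segments was broad, and the shares of most segments overlapped between the groups. Over 13072 Trbv counts, Trbv13-2 and Trbv3 were the most counted, both as counts and per kilobase of exon, with 5041 and 3640 summed counts per kilobase against 2727 for Trbv15 in the third place. Trbv13-2 was the most counted segment in 2DG replicates 9 and 10, in untreated 10-week replicates 5 and 7 and in all 4 untreated 6-week libraries. Trbv3 took that place in the other 4 libraries. The 4 least counted members, Trbv30, Trbv23, Trbv5 and Trbv4, held 71, 33, 26 and 16 counts in all.

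Trbv13-2 took 14.7, 16.5, 11.5 and 11.6% of Trbv counts with 2DG, 14.8, 10.9, 14.3 and 11.3% in untreated 10-week libraries, and 13.2, 13.3, 12.4 and 14.9% in untreated 6-week libraries. Trbv3 took 14.3, 11.2, 13.1 and 14.7% with 2DG, 11.1, 12.5, 13.2 and 13.5% in untreated 10-week libraries, and 11.6, 10.6, 11.9 and 13.6% in untreated 6-week libraries. Each group covered most of the range of the other groups for both segments. In CPM, the log2 fold changes for 2DG at 10 weeks were 0.10 ± 0.14 for Trbv13-2 and 0.11 ± 0.22 for Trbv3, with edgeR adjusted p of 0.723 and 0.804. A single library's share carried a 95% Wilson interval about as wide as these differences, such as 14.3 to 18.9% for the 16.5% of 2DG replicate 10.

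The next 4 segments by counts were Trbv2, Trbv15, Trbv19 and Trbv13-1. Trbv2 took 8.13 to 9.65% of Trbv counts with 2DG, 7.41 to 9.60% in untreated 10-week and 8.09 to 9.43% in untreated 6-week libraries. For 2DG at 10 weeks their log2 fold changes were 0.08 ± 0.20, −0.19 ± 0.25, 0.27 ± 0.21 and −0.44 ± 0.23 in that order, with edgeR adjusted p of 0.852, 0.691, 0.478 and 0.259. Trbv13-1 had the highest shares in untreated 10-week libraries, with 5.11 to 6.64% under 2DG, 6.97 to 9.39% in untreated 10-week and 5.56 to 7.03% in untreated 6-week libraries.

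**Figure D4:**
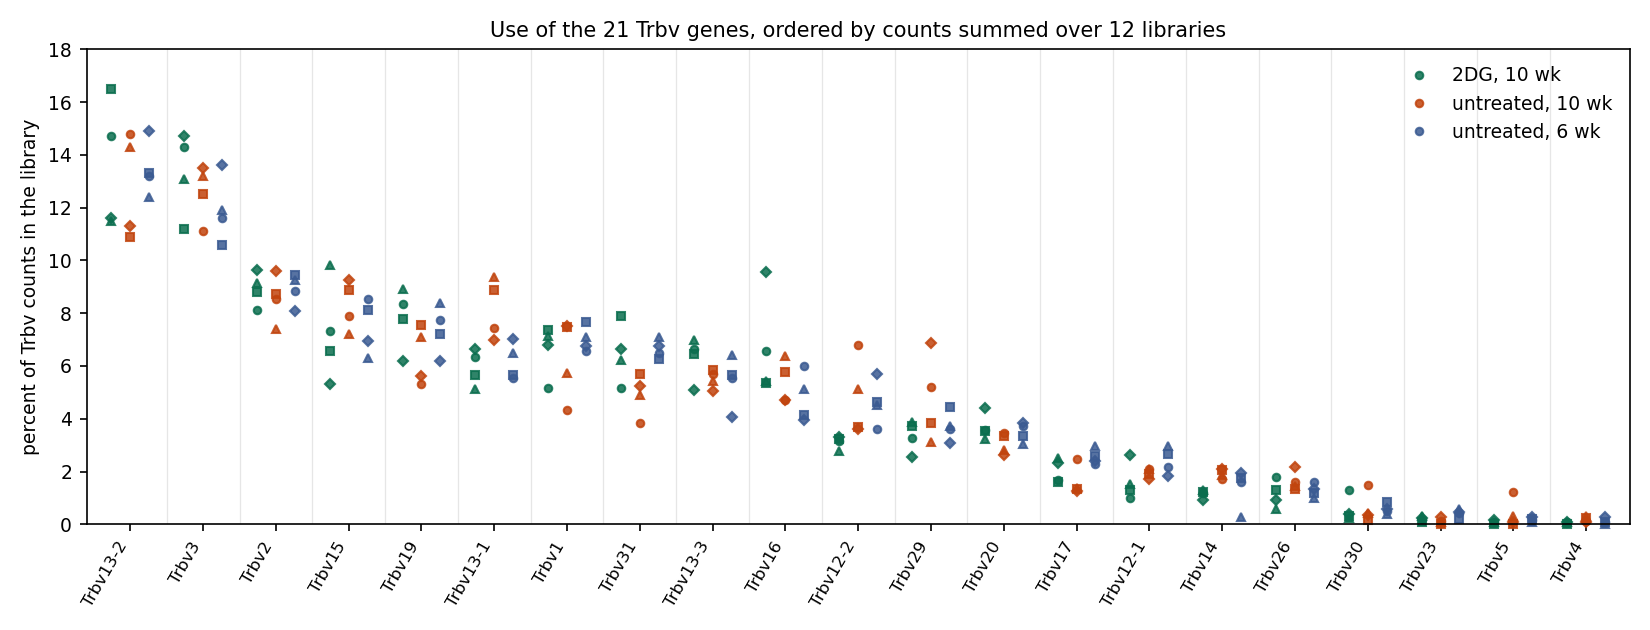
Share of each library's Trbv counts, in percent, taken by each of the 21 Trbv genes, ordered from the most to the least counted. Points are libraries, coloured by group with 2DG at the left of each gene and untreated 6-week libraries at the right; the groups overlap for most genes, with single high libraries for Trbv16 (9.57%) and Trbv29 (6.88%).

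A few Trbv segments stood out in single libraries. Trbv16 took 9.57% of Trbv counts in 2DG replicate 12 (124 of 1296, 95% Wilson interval 8.08 to 11.3%), against 5.36 to 6.55% in the other 2DG libraries, 4.70 to 6.37% in untreated 10-week libraries and 3.95 to 5.99% in untreated 6-week libraries. Without untreated 10-week replicate 7, Trbv29 was called for 2DG at 10 weeks, with a log2 fold change of −0.70 and an edgeR adjusted p of 0.0432; it was 1 of 38 segments called in that setting, where 8.43% of all genes were called. With all libraries these were −0.49 ± 0.25 and 0.249. It took 2.55 to 3.89% of Trbv counts with 2DG, 3.13 to 5.19% in 3 of the untreated 10-week libraries and 3.08 to 4.44% at 6 weeks. Untreated 10-week replicate 8 stood above all of these at 6.88% (76 of 1104, interval 5.54 to 8.53%). Trbv5 was counted up to 3 times in each library but untreated 10-week replicate 5, where its 0.522 CPM made 1.24% of Trbv counts.

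Among Trbv segments the smallest p for 2DG at 10 weeks was that of Trbv12-2. It held 1.35, 1.34, 1.47 and 1.92 CPM with 2DG, 2.87, 2.35, 2.02 and 1.71 CPM in untreated 10-week libraries, and 1.90, 2.21, 2.2 and 3.62 CPM in untreated 6-week libraries. Its log2 fold change was −0.55 ± 0.23 against untreated 10-week libraries and −0.69 ± 0.23 against untreated 6-week libraries, with edgeR adjusted p of 0.169 and 0.159. In CPM, only 2DG replicate 12 reached into the untreated ranges. As a share of Trbv counts, Trbv12-2 took 2.76 to 3.32% with 2DG, 3.62 to 6.80% in untreated 10-week and 3.63 to 5.68% in untreated 6-week libraries, so that 2DG lay below both. Between the untreated ages the smallest p was that of Trbv17, with 1.04, 0.845, 0.536 and 0.597 CPM at 10 weeks and 1.2, 1.24, 1.43 and 1.53 CPM at 6 weeks. The 10-week values all lay below the 6-week values, and the log2 fold change was −0.85 ± 0.29 with an adjusted p of 0.176. Trbv31 followed with a log2 fold change of −0.55 ± 0.24 and an adjusted p of 0.272, and its share was 3.83 to 5.69% in untreated 10-week against 6.28 to 7.09% in untreated 6-week libraries.

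Counted over all 21 Trbv genes, shares did not overlap for 3 genes between 2DG and untreated 10-week libraries (Trbv13-1, Trbv12-2 and Trbv14), all lower with 2DG. Trbv14 took 0.926 to 1.30% with 2DG against 1.73 to 2.08% in untreated 10-week libraries. Shares did not overlap for 1 gene between the untreated ages (Trbv31) and for 1 between 2DG and untreated 6-week libraries (Trbv12-2). Over all genes, CPM did not overlap for 12.4, 6.97 and 15.7% in these comparisons, which is a different measure, and the shares carry no test.

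The evenness of Trbv use, expressed as the inverse Simpson number of segments, was 12.0, 11.9, 12.4 and 12.3 with 2DG, 13.2, 13.0, 12.4 and 12.8 in untreated 10-week libraries, and 13.1, 13.4, 13.1 and 12.4 in untreated 6-week libraries. The number would be 21 if all Trbv genes were used equally and 1 if a single gene held every count. The means of 12.2 ± 0.27 with 2DG, 12.9 ± 0.35 in untreated 10-week and 13.0 ± 0.40 in untreated 6-week libraries (SD, n = 4 each) differed by less than 1 segment, and the ranges overlapped at their ends. The exponential of the Shannon entropy, which gives rare segments more weight, was 13.9 to 14.4 with 2DG, 14.6 to 15.6 in untreated 10-week and 14.8 to 15.3 in untreated 6-week libraries. By this number every 2DG library lay below all 8 untreated libraries, so the overlap depends on the measure chosen. Trbv profiles of library pairs within the 2DG group had Pearson correlations across the 21 genes of 0.904 to 0.959, against 0.850 to 0.969 between 2DG and untreated 10-week libraries, 0.902 to 0.964 within untreated 10-week and 0.953 to 0.984 within untreated 6-week libraries. These are correlations across genes, which are not independent replicates, and gene length is common to all profiles. The ranges within and between groups overlapped.

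Alpha V segments were counted far less often. Trav counts came to 14.1 to 17.2 per 100 Trac counts with 2DG, 15.9 to 18.1 in untreated 10-week and 15.7 to 17.8 in untreated 6-week libraries. Trbv counts came to 58.0 to 60, 58.9 to 65.2 and 58.2 to 66.0 per 100 Trbc counts in the same order of groups. The 54 Trav genes shared 203 to 386 counts per library, so single genes rest on few counts.

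The leading Trav segments by summed counts were Trav3-3, Trav4-4-dv10, Trav14n-3, Trav14-1, Trav9-2 and Trav14-2, each with 124 to 174 counts over the 12 libraries. No segment led everywhere: Trav4-4-dv10 had the most counts in 2DG replicate 9 and in untreated 10-week replicates 5 and 7, and Trav3-3 in untreated 10-week replicate 6 and untreated 6-week replicates 1 and 4. Trav4-4-dv10 took 9.40% of Trav counts in 2DG replicate 9 and 1.2% in untreated 6-week replicate 2, the extremes of its range. Trav3-3 held 0.421, 0.293, 0.433 and 0.669 CPM with 2DG, 0.730, 0.986, 0.536 and 0.639 CPM in untreated 10-week libraries, and 1.06, 0.619, 0.478 and 1.29 CPM in untreated 6-week libraries. Its log2 fold change was −0.66 ± 0.36 for 2DG at 10 weeks (edgeR adjusted p 0.287) and −0.90 ± 0.36 for 2DG against 6 weeks (adjusted p 0.221). Trav9-2 had the smallest p among the Trav genes for 2DG at 10 weeks, with a log2 fold change of −0.67 ± 0.34 and an adjusted p of 0.239. Of the 9 Trav genes tested in that comparison 3 had positive and 6 negative estimates.

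The inverse Simpson number of Trav genes was 30.2 to 36.6 with 2DG, 30.0 to 34.8 in untreated 10-week and 30.5 to 36.4 in untreated 6-week libraries, with means of 32.8 ± 2.7, 32.8 ± 2.2 and 33.5 ± 3.2 (SD, n = 4 each). This number was higher for Trav than for Trbv in every library. Its highest possible value also differs, at 54 for Trav and 21 for Trbv. Genes with at least 100 counts numbered 10 for Trav and 17 for Trbv. Over these the number was 8.12 to 9.80 for Trav and 11.6 to 13.0 for Trbv. The highest possible value for 10 genes is 10, below every Trbv value, so this reversed order was fixed by the filter. Neither set of genes compares the evenness of the chains. The Trav ranges over all 54 genes overlapped between groups. Single shares did not overlap for 2 of 54 Trav genes between 2DG and untreated 10-week libraries and for 4 between the untreated ages. The count was 0 between 2DG and untreated 6-week libraries. Over all genes, CPM did not overlap for 12.4, 6.97 and 15.7% in these comparisons, which is a different measure. Trav12-1 was without overlap in both of the first 2 comparisons. It took 0.427 to 1.79% with 2DG, 2.33 to 2.74% in untreated 10-week and 0.362 to 1.17% in untreated 6-week libraries. These shares rest on 52 counts in all, 1 to 9 per library, and Trav12-1 was not tested. Pairs of Trav profiles correlated less than pairs of Trbv profiles, with medians of 0.588 to 0.678 across the 54 genes within and between groups; counts per gene were also lower.

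**Figure D5:**
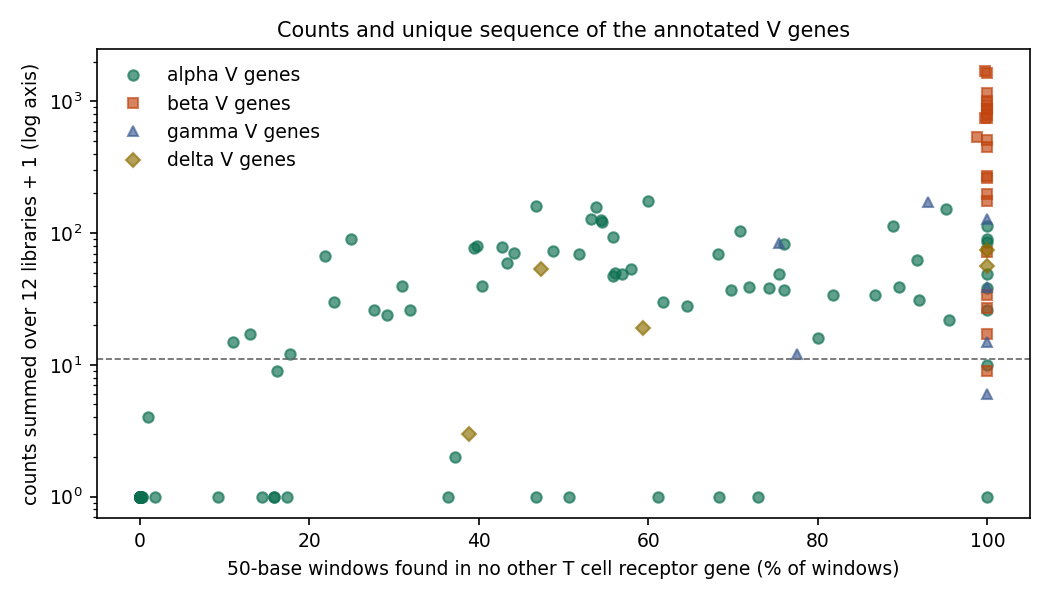
For each of the 144 annotated V genes, the percentage of its 50-base windows found in no other receptor gene (horizontal axis) and its counts summed over 12 libraries plus 1 (vertical log axis), with the dashed line at the limit of 10 counts. Most V genes without a count sit at 0% unique windows and all are alpha genes, while the 21 Trbv genes with at least 10 counts sit at 98.8 to 100%.

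The alpha locus of this mouse build holds large repeated blocks, and this bears on which Trav genes have counts at all. Of the 52 V genes with 0 counts in every library, all were alpha V genes on chromosome 14, 47 carried the copy letter d or n in their names, and 37 had no 50-base window of their own. Among the 85 V genes with at least 10 counts, none lacked such a window. The median share of unique windows was 57.4% for the 54 Trav genes followed here and 100% for the 21 Trbv genes. A count of 0 for a gene without a window of its own is therefore no measure of its use.

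Trav11 and Trav11d are an example of weight for T cell biology, since the invariant alpha chain of mouse natural killer T cells is built from Trav11 and Traj18. Their last 60 shared coding bases are printed to show that no base tells them apart, and no letter is in capitals for that reason. They lie at chr14:53519799-53519858 and chr14:52824853-52824912 on the plus strand.
Trav11: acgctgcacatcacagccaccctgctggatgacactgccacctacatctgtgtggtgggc
Trav11d: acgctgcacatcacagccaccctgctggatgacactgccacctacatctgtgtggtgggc
The pair was identical over 342 coding bases, and both were counted 0 times in all 12 libraries. A count of 0 allows up to 3 counts, or 0.115 to 0.192 CPM depending on the library, but only for reads that could be assigned. Trav1, the V segment of the invariant chain of mucosal-associated invariant T cells, had 1 to 6 counts per library with 2DG, 1 to 3 in untreated 10-week and 2 to 4 in untreated 6-week libraries, too few to test.

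Gamma and delta V segments were sparse. Trgv2, Tcrg-V4 and Tcrg-V1 held 170, 126 and 83 summed counts of the 442 counts over the 6 gamma V genes. Trgv2 took 28.3 to 46.3% of gamma V counts with 2DG, 15.4 to 43.3% in untreated 10-week and 30.0 to 43.2% in untreated 6-week libraries, from only 41 to 53, 13 to 35 and 20 to 46 gamma V counts per library. Untreated 10-week replicate 5 had the fewest at 13. The 4 delta V genes Trdv1, Trdv4, Trdv2-2 and Trdv5 held 74, 55, 52 and 18 summed counts, none passed the filter, and 5 to 28 delta V counts per library do not resolve their use.

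Of the receptor's partners only Cd8a passed the test, in both 10-week comparisons. Cd3d, Cd3e, Cd3g and Cd247, which carry the receptor's signal, had log2 fold changes of −0.12 to −0.25 for 2DG at 10 weeks, and the smallest edgeR adjusted p of the 4 was 0.259, for Cd3g. Cd4, the helper cell coreceptor, held 152, 145, 171 and 182 CPM with 2DG and 144, 173, 151 and 152 CPM in untreated 10-week libraries, with a log2 fold change of 0.07 ± 0.10 (adjusted p 0.723). Cd8a, whose gene is targeted in all groups, was higher with 2DG, at 46.7, 59.2, 48.2 and 46.9 CPM against 30.4, 34.7, 27.7 and 37.7 CPM in untreated 10-week libraries, a log2 fold change of 0.62 ± 0.11 (adjusted p 0.00667). It was also lower in untreated 10-week libraries than in the untreated 6-week libraries, which held 57.1, 56.4, 62.6 and 70.7 CPM, by a log2 fold change of −0.92 ± 0.11 (adjusted p 0.036), and was the only gene called between the untreated ages. No listed gene was called for 2DG at 10 weeks against untreated 6-week libraries. Cd8b1, its partner chain, held 1.14, 1.80, 2.64 and 3.30 CPM with 2DG and 0.470, 0.892, 0.866 and 4.14 CPM in untreated 10-week libraries, with the highest value of all in replicate 8.

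Few other T cell genes came near the threshold for 2DG at 10 weeks. None of 20 receptor signalling genes passed the edgeR test, with a median log2 fold change of 0.03, beside 0.01 over all genes. The smallest adjusted p was 0.0519, for the adaptor Lcp2 (log2 fold change −0.31 ± 0.09). None of 13 pan T cell genes passed, with a median of −0.08; the adaptor Sh2d1a had −0.49 ± 0.14 (adjusted p 0.0509) and the transcription factor Tbx21 −0.99 ± 0.28 (adjusted p 0.0521). None of 8 tested genes listed for gamma delta T cells passed, with a median of 0.28. Sox13, a transcription factor of gamma delta lineages, had 0.57 ± 0.23 (edgeR adjusted p 0.155) and Sox4 0.34 ± 0.18 (adjusted p 0.257). Blk and Maf of this list stood at a log2 CPM of 7.83 and 7.1, beside 1.87 for Trdc. Their counts in whole spleen need not come from gamma delta T cells. Of the 8, 5 had positive and 3 negative estimates, the negative ones being Il23r at −0.56, Cd163l1 at −0.32 and Maf at −0.18. The summed level of the 8 T cell markers was 409 to 567 CPM with 2DG, 463 to 590 CPM in untreated 10-week and 475 to 602 CPM in untreated 6-week libraries, and none of them was at 0.

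Rag1, which cuts V, D and J segments in developing lymphocytes, held 1.30, 4.02, 3.42 and 3.7 CPM with 2DG, 23.4, 0, 17.8 and 19.4 CPM in untreated 10-week libraries, and 10.9, 11.4, 5.40 and 9.82 CPM in untreated 6-week libraries. Replicate 6 of the untreated 10-week group had none and its 3 companions had the highest levels. None of 10 tested recombination genes passed for 2DG at 10 weeks, with a median of −0.09; Lig4, a DNA ligase of end joining, had −0.36 ± 0.12 (edgeR adjusted p 0.0856) and Rag2 −2.22 ± 0.88 (adjusted p 0.150). Ptcra, the partner of a new beta chain in immature thymocytes, held at most 0.0886 CPM in any library, under the level of 3 counts.

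Some genes shared with natural killer cells and other spleen cells did change with 2DG at 10 weeks. A list of 7 genes covered invariant T cells and the molecules that present to them. From it Il2rb, a subunit of the interleukin 2 and 15 receptors, fell by 0.79 ± 0.18 on the log2 scale (edgeR adjusted p 0.0207). Cd1d1, which presents lipids to natural killer T cells, rose by 0.59 ± 0.14 (adjusted p 0.0273). Of 6 natural killer genes 2 fell, Eomes by 1.45 ± 0.28 (adjusted p 0.0100) and Klrk1 by 0.42 ± 0.12 (adjusted p 0.0466). Of 7 plasma cell genes 6 fell, with a median of −1.46 and a summed level of 1611 to 2511 CPM with 2DG, 3597 to 6559 CPM in untreated 10-week and 2114 to 3956 CPM in untreated 6-week libraries; Irf4 fell by 0.96 ± 0.10 and Xbp1 by 1.46 ± 0.17 (adjusted p 0.00176 for both). None of 9 B cell genes passed, with Cr2 at 0.99 ± 0.31 (adjusted p 0.0806) and Fcer2a at 0.46 ± 0.30 (adjusted p 0.384). Of 6 tested erythroid genes Hba-a2 rose by 1.26 ± 0.35 (adjusted p 0.0456), Slc4a1 having 1.07 ± 0.41 (adjusted p 0.137), and of 7 myeloid genes Ly6c2 fell by 1.21 ± 0.31 (adjusted p 0.0419), Itgam having −0.52 ± 0.22 (adjusted p 0.165). The part of these cell types in the receptor values was not tested.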

How the data were processed

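Total spleen RNA was poly(A)-selected and made into libraries with an unstranded TruSeq v2 kit, per the labels' protocols. Counts were deposited as whole numbers in 1 table of genes by 12 libraries. The tools Bowtie2 2.2.0 and RSEM 1.2.12 and the build GRCm38 come from the submitters' processing notes, which were available without the role of each. The sources used here do not say how reads shared by similar segments were divided. Of 53715 rows, 53620 matched GENCODE M21.

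Counts were tested with edgeR 4.0.16 in R 4.3.3 (TMM, filterByExpr by group, robust quasi-likelihood fit over all 12 libraries), with Benjamini-Hochberg adjustment over 18542 genes and a threshold of 0.05. SE was taken from the fold change and its F statistic; approximate 95% intervals follow from it. CPM follow TMM. Shares, ratios and V usage are descriptions without a test. No pair of libraries in a group agreed within sampling noise (chi-square per gene 10.5 to 85.2). Scripts were tested on simulated data. Sequence windows came from GENCODE M21 transcripts on both strands.

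Named genes were every C gene, the 6 Trav, 6 Trbv, 2 gamma V and 2 delta V genes with the most counts, segments past the threshold (none), the CD3 and coreceptor genes, Trav11, Trav1 and the 2 genes of smallest p in each list (1 of them is not reported here); Trbv5, Trbv12-2, Trbv14, Trbv16, Trbv17, Trbv29, Trbv31, Trav12-1, Tcrg-V1, Il23r, Cd163l1, Maf, Rag1, Ptcra, Trat1, Trbj2-7 and Traj18 were named after their values were seen. Members and lists were chosen with earlier results of these data known. Alternatives were DESeq2 1.42.0, other size factors and filters, fits of 2 groups, removal of immunoglobulin genes, summed copies and each library left out.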

Additional observations from a re-analysis of the deposited data

Results flagged for a closer look

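Within groups of 4 libraries, 5 values lay apart from their companions by more than the critical gap of Dixon's test at the 95% level, out of 144 groups of values examined; chance alone gives about 1 in 20. Tcrg-C2 in untreated 10-week replicate 8 was high at 2.73 CPM, with 0.887 to 1.17 CPM in its companions. Cd8b1 in the same library was high at 4.14 CPM, with 0.470 to 0.892 CPM in its companions. Trbv15 in 2DG replicate 11 was high at 5.24 CPM, with 2.72 to 3.11 CPM in the other 2DG libraries. Cd8a in 2DG replicate 10 was high at 59.2 CPM, with 46.7 to 48.2 CPM in the other 2DG libraries. Trgv2 in untreated 6-week replicate 4 was low at 0.368 CPM, with 0.765 to 0.842 CPM in its companions.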

How the results depend on the processing

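The count of segments called stayed at 0 in each comparison under DESeq2, other size factors, other filters, summed copies, tables without immunoglobulin genes and fits restricted to a pair of groups. With 1 library left out it ran from 0 to 2 for 2DG at 10 weeks and from 0 to 2 between the untreated ages. For 2DG it was 1 of 38 without untreated 10-week replicate 7 (Trbv29; 8.43% of all genes called) and 2 of 38 without replicate 8 (Tcrg-C2 and Tcrg-C4; 11.8% of all genes). Between the ages it was 2 of 38 without replicate 8 (the same genes; 8.33% of all genes). Without replicates 5 and 8 together, chosen after seeing the data, it was 1 of 46 between the ages (Tcrg-C2, log2 fold change −1.16; 5.58% of all genes). The cause was not tested. Trdc for 2DG ranged from 0.43 to 1.08 over the alternatives, with adjusted p of 0.0545 to 0.5.

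Estimates near 0 changed sign. Trac for 2DG ran from −0.20 to 0.04 with a library left out and between the ages from −0.08 to 0.13, Trbc1 for 2DG from −0.10 to 0.14, and Trbc2 between the ages from −0.22 to 0.02. With Trbc1 and Trbc2 summed, the log2 fold change for 2DG was 0.08.

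Some values moved by more than 1 SD where the alternative used fewer genes, merged copies, another index or another denominator. Such a shift follows largely from the change of scale and is no measure of how the groups compare. In 2DG, untreated 10-week and untreated 6-week libraries, C genes alone took 0.0175, 0.0160 and 0.0181% of counts; the exponential of the Shannon entropy was 14.2, 14.9 and 15.1 for Trbv, where 2DG did not overlap either untreated group, and 39.3, 39.6 and 40.1 for Trav; and the Trav inverse Simpson number was 27.8, 28.0 and 27.8 with copies summed and 8.99, 8.64 and 8.79 over genes with at least 100 counts. Per 100 pan T cell counts there were 69.0, 62.3 and 67.5 alpha and beta C counts, and 5.16 gamma and delta C counts with 2DG. Leaving out 1 library, the mean of gamma and delta per 100 alpha and beta C counts ran from 6.75 to 8.22 with 2DG, 3.56 to 5.53 in untreated 10-week and 6.12 to 7.95 in untreated 6-week libraries. No paired analysis was possible because the replicate numbers run on across the groups. Depth limits the delta V and most Trav genes, which could not be tested.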

Other observations

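The J segments, which join the V segment to the constant region, were counted too. Of the Trbj counts, those of the Trbj1 cluster made up 53.3 to 59.6% with 2DG, 51.2 to 58.6% in untreated 10-week and 51.3 to 60.5% in untreated 6-week libraries, which overlap. Trbj2-7 had the most counts of the Trbj genes, with 466 over all libraries. It took 17.6, 14.1, 8.79 and 14% of Trbj counts with 2DG, 11.7, 13.7, 12.9 and 9.66% in untreated 10-week and 13.2, 13.6, 14.6 and 14.1% in untreated 6-week libraries. Traj18, the J segment of the invariant natural killer T cell chain, had 1 to 10 counts per library with 2DG, 3 to 7 in untreated 10-week and 4 to 7 in untreated 6-week libraries. Trat1, an adaptor that binds the receptor complex, held 4.08, 5.94, 7.10 and 7.5 CPM with 2DG, 1.15, 5.26, 2.27 and 3.92 CPM in untreated 10-week and 4.83, 5.04, 5.40 and 5.77 CPM in untreated 6-week libraries, and its log2 fold change for 2DG at 10 weeks was 0.96 ± 0.34 (edgeR adjusted p 0.108).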
